A study of Mus musculus with 4 samples.

Results

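The regions described here were the ATAC-seq peaks near the ends of the mouse autosomes, taken by position alone as peaks that start below 5 Mb or end within 1 Mb of the chromosome length in the mm10 build. Of the 128055 peaks, 2713 met this rule, with 1833 on the centromere side of the chromosomes and 880 at the far end, and the other 121785 autosomal peaks formed the interior. ATAC-seq, which reads out open chromatin from where a transposase can cut and tag the DNA, was performed on mesenchymal stem cells (MSCs) grown out of the bone of wild-type C57BL/6 N male mice aged 3 to 5 months. All cells had first been cultured at 2% O2 and were sorted by flow cytometry as CD45-/TER119-/CD140a+/Sca-1+, after which they were either kept in hypoxia (2% O2, 2 libraries) or moved to normoxia (21% O2, 2 libraries) for a week. The study describes its ATAC-seq replicates as separate biological experiments, while the labels do not say how many animals each library holds, and p-values measure only the spread between these libraries. The same contrast, normoxia against hypoxia, had been seen before these regions were proposed. The peaks listed below as higher or lower were chosen by their signal in that contrast, so those lists and their values are a description and support nothing further.

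Mouse autosomes are telocentric, so the centromere lies at the start of each chromosome in the reference and the long arm runs to the telomere at the other end. Centromeres are built on long arrays of satellite repeats that bind the centromeric nucleosome, and the chromatin around them is normally packed as constitutive heterochromatin. Telomeres carry short G-rich repeats that protect the end, and the sequence just inside them is often duplicated between chromosomes. The arrays themselves are largely missing from the assembly. In mm10 the first called base lies about 3 Mb into each chromosome, behind a run of unknown bases, so the centromere-side window covered the first assembled sequence next to the centromere and not the centromere, and the far window likewise stopped short of the telomere.

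Several of the named peaks with a large difference between the groups carried sequence that is present more than once in the mouse genome. Other peaks called higher did not, such as chr5:3722101-3722900 with a log2 fold change of 1.54. The central 300 bases of 5 peaks with repeated sequence are shown to let that be read directly. They are the plus strand of the mm10 reference (RefSeq GRCm38.p6), 5′ to 3′, from the peaks named below, and capitals mark bases covered by a stretch of 31 bases (a 31-mer) that occurs at least once more in the reference on either strand. The first is from chromosome 13 at chr13:3373351-3373650, with 187 of 300 bases repeated. The second is from the far end of chromosome 2 at chr2:181917901-181918200, with 123 repeated. The third, at chr6:3201251-3201550, has 212 repeated and comes from a peak that shares sequence with a ribosomal RNA gene copy. The fourth, at chr4:3053001-3053300, has 191 repeated and holds 3 copies of a 12-letter unit, AGCACTGTGACA. The fifth, at chr16:3241201-3241500, has 248 repeated and holds 2 copies of that unit, read on the other strand as TGTCACAGTGCT.
chromosome 13 centromere side: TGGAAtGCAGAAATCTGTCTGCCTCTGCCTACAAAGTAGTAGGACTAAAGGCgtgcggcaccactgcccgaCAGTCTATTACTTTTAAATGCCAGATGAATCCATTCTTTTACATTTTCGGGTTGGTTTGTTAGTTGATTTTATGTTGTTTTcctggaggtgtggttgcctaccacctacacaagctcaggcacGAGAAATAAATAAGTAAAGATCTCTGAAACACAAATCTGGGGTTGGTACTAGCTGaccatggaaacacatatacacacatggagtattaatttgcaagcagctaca
chromosome 2 far end: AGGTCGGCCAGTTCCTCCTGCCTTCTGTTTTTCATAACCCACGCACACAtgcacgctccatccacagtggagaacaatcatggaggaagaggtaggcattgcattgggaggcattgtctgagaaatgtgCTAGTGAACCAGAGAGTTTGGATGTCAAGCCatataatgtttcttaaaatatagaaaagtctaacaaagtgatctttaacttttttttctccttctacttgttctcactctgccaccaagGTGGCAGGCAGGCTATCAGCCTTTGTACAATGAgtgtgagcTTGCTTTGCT
chromosome 6 centromere side: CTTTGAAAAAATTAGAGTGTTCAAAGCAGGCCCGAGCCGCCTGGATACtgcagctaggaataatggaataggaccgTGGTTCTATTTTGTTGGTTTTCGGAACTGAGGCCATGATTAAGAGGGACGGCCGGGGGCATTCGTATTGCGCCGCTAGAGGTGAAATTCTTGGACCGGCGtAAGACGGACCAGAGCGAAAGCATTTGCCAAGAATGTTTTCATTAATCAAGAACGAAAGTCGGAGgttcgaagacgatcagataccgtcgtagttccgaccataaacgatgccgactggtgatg
chromosome 4 centromere side: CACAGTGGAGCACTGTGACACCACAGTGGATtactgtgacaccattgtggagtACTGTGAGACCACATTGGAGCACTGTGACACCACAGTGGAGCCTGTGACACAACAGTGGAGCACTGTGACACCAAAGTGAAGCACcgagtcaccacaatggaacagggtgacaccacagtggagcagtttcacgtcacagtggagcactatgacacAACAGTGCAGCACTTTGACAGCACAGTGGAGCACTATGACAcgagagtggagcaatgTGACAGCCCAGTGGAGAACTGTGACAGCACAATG
chromosome 16 centromere side: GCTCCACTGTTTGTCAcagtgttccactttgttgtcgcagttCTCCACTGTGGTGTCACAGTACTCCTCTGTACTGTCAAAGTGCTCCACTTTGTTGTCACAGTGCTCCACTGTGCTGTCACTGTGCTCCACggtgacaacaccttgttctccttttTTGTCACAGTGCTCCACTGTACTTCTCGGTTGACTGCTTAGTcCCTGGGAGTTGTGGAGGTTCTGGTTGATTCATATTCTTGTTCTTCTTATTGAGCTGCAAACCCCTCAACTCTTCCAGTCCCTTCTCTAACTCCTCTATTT

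The deposited signal is a read number per peak scaled by the library total and is not divided by peak width. With the scale taken as 10000000 per library, library totals ran from 26680936 to 29965523 reads. The median peak held between 33 and 48 reads. Between 56.99% and 62.3% of the library total lay in peaks in hypoxia and between 32.5% and 37.6% in normoxia, so both normoxia libraries were below both hypoxia libraries. The fold changes below are normoxia over hypoxia on the scale log2(signal + 1) after each library was divided by its RLE (relative log expression) size factor. On this scale all peaks had a median of -0.0040. With the values as deposited that median was -0.44, and with equal totals over the peaks it was 0.26, so every change is relative to the bulk of the peaks. Promoter peaks were found at the genes of both sort markers, with a summed signal of 166 to 334 at Pdgfra (CD140a) and 41.6 to 82.6 at Ly6a (Sca-1). No promoter peak was found for Ptprc (CD45), Hbb-bt, Cd3e, Itgam or Cdh5. The endothelial Pecam1 had 2 promoter peaks at 6.75 to 12.3 in sum.

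In extent, the end peaks resembled those of the interior. There were 48.9 peaks per Mb of called sequence on the centromere side, 52.9 at the far end and 52.0 in the interior, with median widths of 1100, 1100 and 1000 bp and median signals of 15.4, 15.5 and 14.5. The ends were richer in promoter peaks, defined as peaks within 1 kb of a protein-coding start site in GENCODE M21, which made up 19.5% on the centromere side and 22.8% at the far end against 13.4% in the interior. They also held more repeated sequence. At least 25% of the 31-mers were repeated in 106 centromere-side peaks (5.78%), in 50 far-end peaks (5.68%) and in 2828 interior peaks (2.32%). The ends differed widely in how many peaks they held, from none on the centromere side of chromosome 14, 9 on chromosome 3 and 22 on chromosome 9 to 168 on chromosome 2, and from 1 at the far end of chromosome 14 and 2 on chromosome 10 to 96 on chromosome 7.

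Among centromere-side peaks, 51 (2.78%) were called higher in normoxia by limma at a false discovery rate (FDR) under 0.01, against 1.77% of all peaks, and 115 (6.27%) were called lower, against 4.57% of all peaks. Far-end peaks were called higher in 8 cases (0.909%) and lower in 82 (9.32%). Since the signal of a peak bears on whether it is called, interior peaks of equal mean signal over the 4 libraries were set beside them. Such interior peaks were called higher in 1.71% and lower in 5.45% for the centromere side, and in 1.61% and 6.02% for the far end. With equal totals over the peaks, higher against lower turned to 150 against 23 on the centromere side and 47 against 19 at the far end. Over all 128055 peaks it was then 8798 against 1078. With the values as deposited the split was 12 against 461 and 4 against 273, beside 501 against 30729 over all peaks. With cyclic loess it was 33 against 23 and 9 against 18, beside 1819 against 1681 over all peaks. The whole table thus moved with the scaling as well. Leaving out either hypoxia library left a lone hypoxia sample, and limma then called no peak, at the ends or elsewhere. In the deposited values, both normoxia libraries exceeded both hypoxia libraries in 158 centromere-side peaks (8.62%) and 46 far-end peaks (5.23%), beside 6.94% of all peaks. They lay below both in 1059 (57.8%) and 562 (63.9%), beside 59.5% of all peaks.

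The typical end peak differed little from the interior. The median log2 fold change was 0.019 on the centromere side and -0.0091 in interior peaks of equal mean signal, a difference of 0.028 that turned to -0.0015 when only peaks with a mean signal of at least 5 were kept. Each library's own median, taken as the deviation from the mean of the 4, differed from the matched interior by -0.0044 ± 0.011 (SD, n = 2) for hypoxia and by 0.0020 ± 0.0025 (SD, n = 2) for normoxia, so the groups overlapped on the centromere side. At the far end the median was -0.086, against -0.040 in matched interior peaks, a difference of -0.046 that turned to 0.0078 with a pseudocount of 0.1. Here the hypoxia libraries were above the matched interior by 0.022 and 0.046 and the normoxia libraries below it at -0.047 and -0.030, without overlap. An exact permutation test over 2 libraries against 2 cannot give a two-sided p below 0.333, and none is given. When interior peaks were matched on lying at a promoter as well as on signal, the differences were 0.031 and -0.039.

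Among the distance bins examined, the outermost 0.1 Mb of assembled sequence had the largest difference from the matched interior, and the sign was opposite at the centromere side and the far end. On the centromere side, the 25 peaks within 0.1 Mb of the first called base had a median log2 fold change of 0.58, against -0.012 in interior peaks of equal signal. Of these, 6 (24%) were called higher and 2 lower. The median deviations of the libraries were -0.21 and -0.25 in hypoxia against 0.27 and 0.30 in normoxia, so the groups did not overlap. Repeated 31-mers made up a mean of 30.6% of these peaks, beside 12.5% between 0.1 and 0.25 Mb and 7.05% between 0.25 and 0.5 Mb, and the part of repeated sequence in the result was not tested. From 0.1 Mb onward the bin medians lay between -0.09 and 0.07. The peaks of the first 0.1 Mb came from 9 chromosomes, and leaving out each in turn gave medians from 0.35 to 0.96. The chromosomes did not share 1 direction. Chromosomes 2 (8 peaks, -0.081), 17 (1 peak, -0.64) and 19 (2 peaks, -0.99) had medians below 0, and the others above it. The peaks called higher were 3 on chromosome 4 and 1 each on chromosomes 9, 11 and 18. The difference from the matched interior was between 0.44 and 0.74 with the values as deposited, equal totals, cyclic loess, a pseudocount of 0.1, a minimum mean signal of 5 or any single library left out. The calls there were 8 higher and 0 lower with equal totals, 4 and 0 with cyclic loess, and 5 and 8 with the values as deposited.

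The order was the reverse toward the telomere. The 66 peaks within 0.1 Mb of the last called base had a median of -0.30, against -0.14 in interior peaks of equal signal, with 14 (21.2%) called lower and 3 higher. Hypoxia libraries deviated by 0.16 and 0.15 and normoxia libraries by -0.21 and -0.06. The median moved toward 0 with distance, from -0.12 between 0.1 and 0.25 Mb and -0.11 between 0.25 and 0.5 Mb to -0.045 between 0.5 and 0.9 Mb and 0.027 between 0.9 and 2 Mb. Interior peaks of equal signal moved the same way over these bins, at -0.091, -0.033, -0.020 and 0.0065. From the outermost bin on, the differences from them were -0.16, -0.028, -0.074, -0.025 and 0.021, so they did not shrink steadily with distance. The share called lower fell along the same steps from 21.2% through 11.9%, 10.1% and 6.73% to 3.73%, and in interior peaks of equal signal it fell from 9.59% through 7.32%, 5.56% and 5.48% to 4.78%. Promoter peaks made up 27.3% of the outermost bin and 17.4% between 0.9 and 2 Mb, and the interior matched on promoters as well gave -0.16 for the outermost bin. Leaving out each of the 13 chromosomes in turn gave medians from -0.37 to -0.23. The difference from the matched interior stayed below 0, between -0.25 and -0.082, under the same alternatives as above. The counts of calls moved with the scaling, with 6 lower and 5 higher with equal totals, 5 and 5 with cyclic loess, and 31 lower and 3 higher with the values as deposited.

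**Figure D1:**
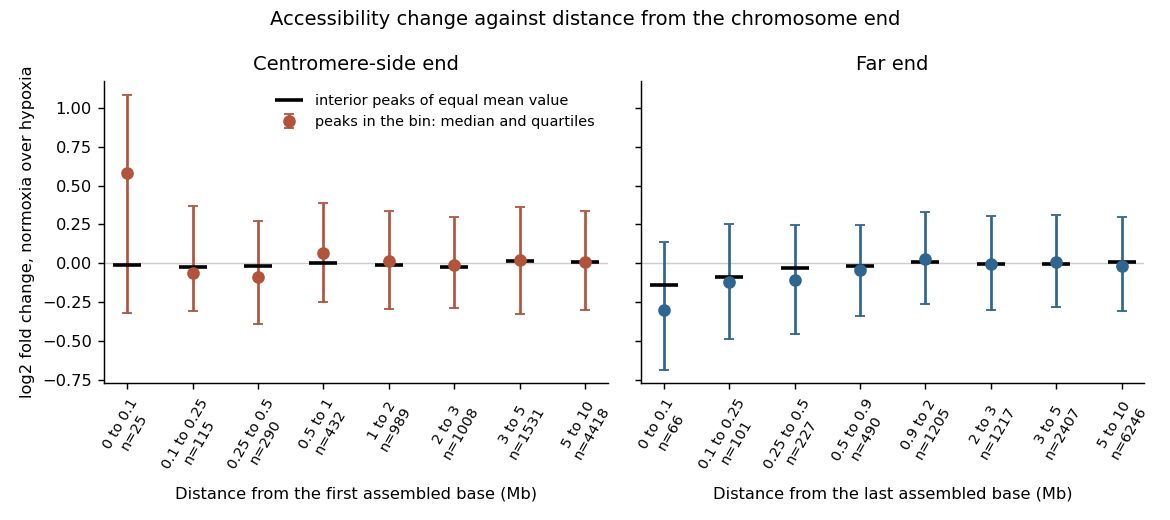
The plot of the log2 fold change (normoxia over hypoxia, vertical axis) against distance from the first or last assembled base in Mb (horizontal axis) gives the median (point) and quartiles (bars) of the autosomal peaks in each bin, with interior peaks of equal mean signal as black dashes. The first 0.1 Mb stands at 0.58 on the centromere side and at -0.30 at the far end, and the bins beyond 0.9 Mb at either end lie near 0.

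The edges of the windows did not mark a step on the centromere side. The 521 peaks in the 0.5 Mb just inside 5 Mb had a median of 0.030 (9 called higher, 29 lower) and the 570 just outside it a median of 0.0074 (16 higher, 26 lower). At the far end the 593 peaks in the 0.5 Mb just inside the edge had a median of -0.045 (4 higher, 42 lower) and the 495 in the next 0.5 Mb a median of 0.077 (10 higher, 13 lower). Of single peaks, the last one inside 5 Mb on chromosome 4 (chr4:4987001-4988000) had signals of 24.4 and 26.5 in hypoxia against 22.1 and 15.7 in normoxia, and the first one outside (chr4:5029301-5031200) had 90.9 and 106 against 86.6 and 103. On chromosome 2, the outermost interior peak at the far end (chr2:181080301-181081600) had 14.2 and 9.52 in hypoxia against 11.2 and 10.3 in normoxia, and the first peak inside the window (chr2:181136801-181137300) had 6.72 and 5.10 against 3.75 and 4.005.

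Chromosome ends did not move as one. Among the 17 centromere-side ends with at least 20 peaks, 12 had a median above interior peaks of equal signal and 5 below it, with differences from -0.13 on chromosome 7 to 0.30 on chromosome 9. Depending on the setting, between 8 and 13 of these 17 ends lay above. Peaks called higher were found at 16 of the centromere-side ends, most often on chromosome 4 (7 of 85 peaks), chromosome 11 (6 of 162) and chromosome 16 (6 of 139). Chromosome 7 stood at the other side, with 0 of 131 peaks called higher and 24 called lower, and 45.8% of its peaks there were at promoters. On chromosome 6, 13 of 75 centromere-side peaks were called lower and 1 higher.

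Of the 15 far ends with at least 20 peaks, 7 were above the matched interior and 8 below, from -0.28 on chromosome 6 to 0.13 on chromosome 7, and between 2 and 9 lay above depending on the setting. Only 6 far ends held a peak called higher, of which chromosome 2 held 3 of 59 peaks. Peaks called lower occurred at 18 of the 19 far ends, with 8 each on chromosomes 5 and 9. The chromosome 14 end with its single peak was the exception.

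**Figure D2:**
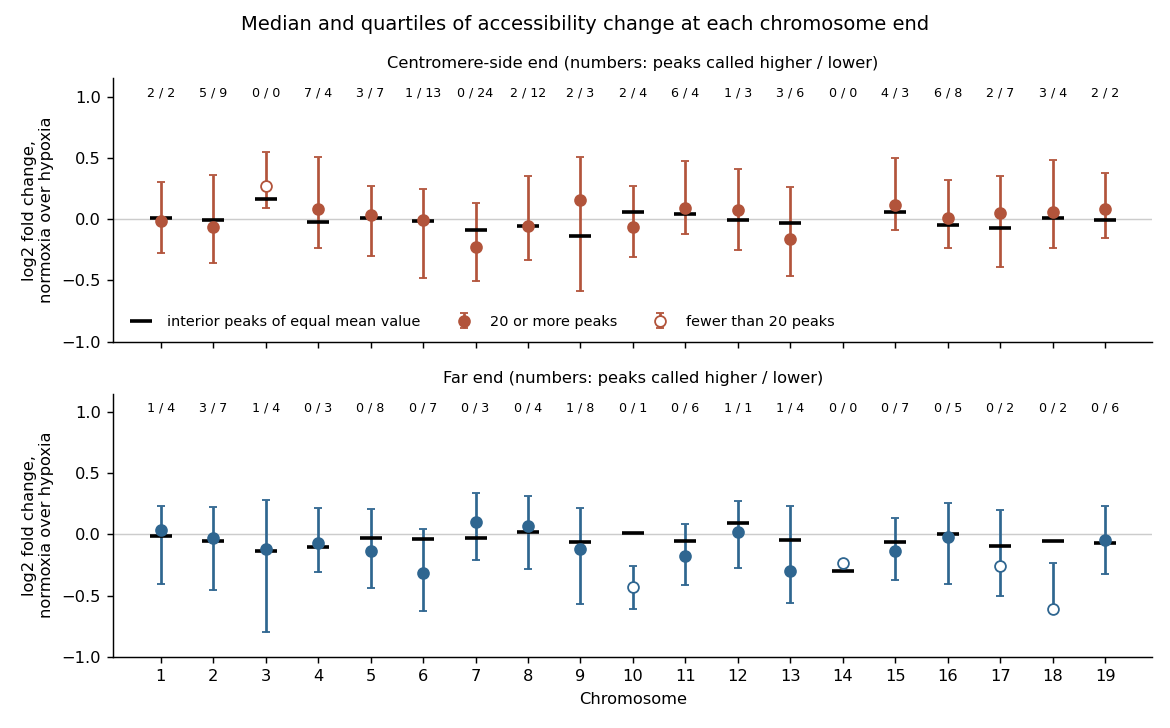
Each point is the median log2 fold change (normoxia over hypoxia) of the peaks at 1 chromosome end, with quartiles as bars, open points for ends with fewer than 20 peaks, black dashes for interior peaks of equal mean signal, and the numbers of peaks called higher and lower above. Medians scatter around the dashes at both ends, and chromosome 7 on the centromere side carries 24 peaks called lower and 0 called higher.

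The 51 centromere-side peaks called higher had log2 fold changes from 0.50 to 2.25 with a median of 1.09, and all had been assigned to both groups by the peak caller. In 47 of them the deposited normoxia values were above both hypoxia values. By place, 31 were intergenic, 12 intronic, 6 exonic and 2 at promoters, and intergenic peaks were called higher in 5.23% on the centromere side against 2.10% in the interior. This list had 6 peaks with at least 25% repeated 31-mers and 21 with none. All 8 far-end peaks called higher were separate in the deposited values, with a median of 1.17, and 4 of them had at least 25% repeated 31-mers.

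**Figure D3:**
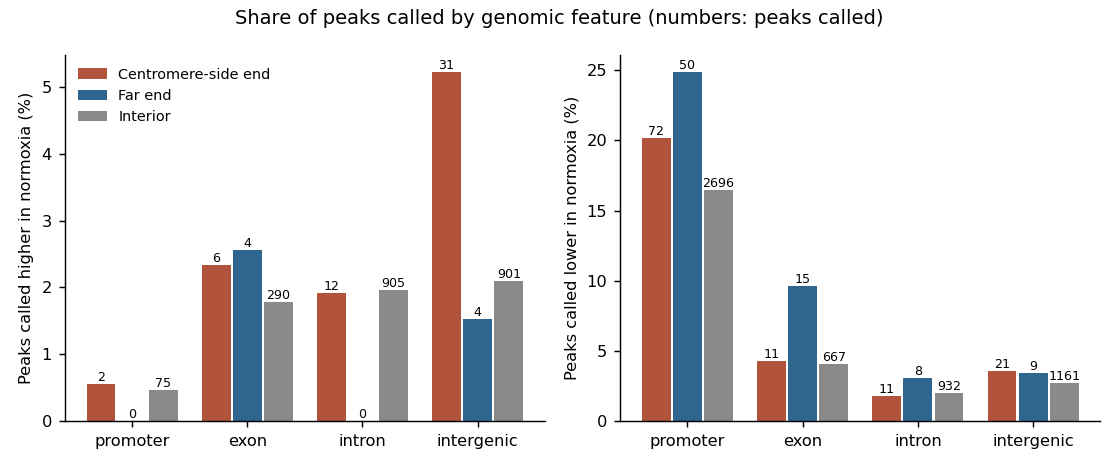
Bars give the share of peaks called higher (left) or lower (right) in normoxia, in percent, for promoter, exon, intron and intergenic peaks of the centromere-side ends, the far ends and the interior, and the numbers above them are peaks called. Intergenic centromere-side peaks stand at 5.23% called higher beside 2.10% of interior ones, and promoter peaks lead the share called lower in all 3 groups.

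The centromere-side peak with the largest fold change was chr13:3372901-3374100, an intergenic region 372.9 kb from the first called base whose nearest protein-coding start is that of Gdi2, a regulator of Rab GTPase recycling. It measured 11.3 and 8.50 in the hypoxia libraries against 40.1 and 33.7 in the normoxia libraries, for a log2 fold change of 2.25 ± 0.23 (SE). The normoxia mean was 3.72 times the hypoxia mean, and the groups were well apart. In this peak 30.8% of the 31-mers were repeated, and among those with up to 20 copies 86.4% had a copy on chromosome 10. The next was chr18:3005101-3006700, 5.1 kb from the first called base and nearest to the vomeronasal receptor gene Vmn1r238. The hypoxia libraries measured 25.8 and 23.8 and the normoxia libraries 84.3 and 67.1 (2.03 ± 0.17), without overlap. Repeated 31-mers made up 31.2%, and of those with up to 20 copies 69.6% had a copy in an end window of another chromosome. Counted at any position, 69.1% of those had a copy on chromosome 16.

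On chromosome 6, chr6:3201001-3201800 lay 151.0 kb from the first called base, with Samd9l, an interferon-induced gene, as the nearest start. Its signals in hypoxia were 18.4 and 21.8, those in normoxia 42.4 and 41.4, for a log2 fold change of 1.49 ± 0.19. The peak whose centre is shown above shares sequence with ribosomal RNA, as 370 of its 770 31-mers (48.1%) occur in Rn18s-rs5, an annotated copy of the small-subunit gene on chromosome 17 (chr17:39846354-39848202). The interior peak over that gene copy (chr17:39842701-39849100) had signals of 5307 and 4341 in hypoxia against 7154 and 7518 in normoxia, a log2 fold change of 1.09. Both peaks thus had higher normoxia values in each library, and whether reads of 1 reached the other was not tested.

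Near the start of chromosome 4, 3 neighbouring peaks were called higher, starting 0, 11.9 and 29.3 kb from the first called base. The first, chr4:3050001-3056300, begins at the first called base and overlaps the miRNA gene model Gm27878. It had signals of 45.3 and 29.6 in hypoxia against 69.0 and 79.1 in normoxia (1.46 ± 0.18). The second, chr4:3061901-3070200, had 68.3 and 50.3 against 105 and 110 (1.33 ± 0.15). The third, chr4:3079301-3087300, had 79.3 and 60.9 against 120 and 117 (1.24 ± 0.14). In each, the normoxia libraries were close to one another and above both hypoxia libraries. The nearest protein-coding start of all 3 was Vmn1r2, a vomeronasal pheromone receptor gene.

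These chromosome 4 peaks were made of a tandem repeat with a period of 21 bp, in which 59.0% to 65.6% of bases equalled the base 21 positions on. The unit AGCACTGTGACA, which was read from these 3 peaks and is visible in the chromosome 4 sequence above, occurred 188 times in them on the 2 strands together. Across all peaks, 75 (0.0586%) held at least 1 copy and 6 held at least 5. Besides the 3 on chromosome 4 these were 2 on chromosome 16 and 1 interior peak on chromosome 7. On chromosome 16, chr16:3231501-3237100 held 57 copies and chr16:3238901-3243800 held 31. The former had 51.7 and 39.1 in hypoxia against 61.1 and 70.1 (1.0 ± 0.16), and the latter 32.2 and 23.1 against 55.5 and 50.4 (1.39 ± 0.19), so both were higher in normoxia without overlap. The interior peak, chr7:64076001-64078200 with 14 copies, measured 25.1 and 17.7 in hypoxia against 19.9 and 20.4 in normoxia, which overlapped, and was not called (log2 fold change 0.39). Most of the genome's copies near the centromere side lay elsewhere, with 346 below 5 Mb on chromosome 17 and 229 on chromosome 3, beside 226 on chromosome 4 and 112 on chromosome 16. As the unit was taken from peaks called higher, its count among them is a description.

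The strongest centromere-side peak called higher was at Sfi1, a centrosomal gene whose product binds centrin. The peak, chr11:3183901-3200200, also overlaps Drg1, the antisense model Gm12735 and the pseudogene Fau-ps2, and begins 83.9 kb from the first called base. The hypoxia libraries measured 1192 and 949 and the normoxia libraries 2096 and 2062, for a log2 fold change of 1.44 ± 0.088. The normoxia values lay above both hypoxia values and near each other. The call was lost with equal totals over the peaks (1.74), with cyclic loess (2.09) and when any single library was left out, while the fold change stayed between 1.22 and 1.66 when 1 library was left out. Repeated 31-mers made up 14.6% of the peak.

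The other named centromere-side peaks held little or no repeated sequence. Among them, chr18:3600601-3601800, nearest to Bambi, a decoy receptor of the TGF-β family, had 11.3 and 8.84 in hypoxia against 19.5 and 22.4 in normoxia (1.43 ± 0.25). The peak nearest to Hormad2, a meiotic chromosome axis gene, at chr11:4471801-4473300, had 7.79 and 7.48 against 14.99 and 14.7 (1.31 ± 0.28). In an exon of Sdr16c5, a retinol dehydrogenase gene, chr4:4005901-4006600 had 7.79 and 7.82 against 14.2 and 15.02 (1.26 ± 0.27). The normoxia mean of these 3 was 1.88 to 2.08 times the hypoxia mean, without overlap. Near Nf2, the gene of the tumour suppressor merlin, chr11:4858301-4859000 had 7.43 and 6.80 against 17.2 and 9.68 (1.21 ± 0.31), and here the normoxia libraries were far apart. These rest on few reads, 20 to 46 in each library at the peak near Nf2, and the calls near Hormad2, Nf2 and in Sdr16c5 were lost with the values as deposited and with cyclic loess.

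The remaining 39 centromere-side peaks called higher had log2 fold changes from 0.50 to 1.54 (median 0.95), mean signals from 5.41 to 123, and 18 of them no repeated 31-mer. At the start of chromosome 15, 3 of them fell at or nearest to Ghr, the growth hormone receptor gene, with log2 fold changes of 0.94 in an intron and 1.51 and 0.96 in intergenic sequence, and a further peak was nearest to Selenop, a selenium transport gene, at 0.57. On chromosome 10 a pair lay in introns of Plekhg1 (0.99 and 1.48). On chromosome 13, 1 lay in an intron of Akr1c14 (1.29) and 1 nearest to Akr1c18 (1.40), both genes of steroid-metabolising aldo-keto reductases. On chromosome 11 there were peaks in Sec14l2 (1.46), Nf2 (1.298) and Mtmr3 (0.96), a phosphoinositide phosphatase gene. On chromosome 16 the nearest starts were those of the olfactory receptor genes Olfr161 (1.23, 336442 bp away) and Olfr15 (1.34, 10178 bp away). The others there lay in an intron of Adcy9, an adenylyl cyclase gene (0.79), and in 4930562C15Rik (0.50).

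On chromosome 2, peaks lay in Nmt2, a protein myristoyltransferase gene (0.75), in Sephs1 (0.95) and next to it (0.72), and nearest to Fam107b (1.11) and Frmd4a (1.20). The further chromosome 4 peaks were nearest to Vmn1r3 (0.82), Rps20 (0.93) and Impad1 (0.78), and those of chromosome 5 lay in Ankib1 (1.54) and nearest to Mterf1b (1.0) and Fzd1, a Wnt receptor gene (0.67). Chromosome 9 gave a peak nearest to Alkbh8 (0.92) and a promoter peak at Gm10722 (1.09), in which 73.7% of 31-mers were repeated. The Gm10722 peak is 800 bp wide and starts before the first called base. In it 200 bases are unknown, and 98.7% of the rest is masked as repeat in the reference. On chromosome 1 the nearest genes were Xkr4 (1.34) and Mrpl15 (0.62), on chromosome 17 Tfb1m (1.45) and Nox3 (0.91), and on chromosome 18 Lyzl1 (0.92). The last ones lay near Cd209a (0.78) and in the pseudogene Vmn2r-ps89 (0.95) on chromosome 8, in Ncoa1, a nuclear receptor coactivator gene (0.73), on chromosome 12, and as a pair in Tesmin (0.95 and 0.79) on chromosome 19.

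Of far-end peaks, the 3 with the largest fold change were neighbours on chromosome 2, within 93.8 kb of its last called base. The first, chr2:181916701-181919400, is intergenic with Polr3k, a subunit gene of RNA polymerase III, as the nearest start, and had signals of 45.6 and 36.7 in hypoxia against 137 and 126 in normoxia (2.13 ± 0.15). The second, chr2:181928301-181929400, nearest to Gm14496, had 5.66 and 4.08 against 17.2 and 13.3 (1.90 ± 0.31). The third, chr2:181930201-181932500, had 21.9 and 19.4 against 56.97 and 52.4 (1.83 ± 0.18) and was the outermost peak of the chromosome. In the mean, normoxia was 2.65 to 3.19 times hypoxia, and the groups did not overlap in any of the 3. They held 32.96%, 50.5% and 29.1% repeated 31-mers, and of those with up to 20 copies in the outermost peak 52.6% had a copy in an end window of another chromosome.

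The other 5 far-end peaks called higher lay on separate chromosomes. The strongest, chr13:119608801-119617900 over exons of Tmem267 and the lincRNA Gm48265, measured 217 and 178 in hypoxia against 359 and 308 in normoxia (1.24 ± 0.12), and 27.7% of its 31-mers were repeated. An intergenic peak nearest to Depdc1a, chr3:159475101-159476000, had 15.9 and 16.7 against 22.5 and 30.7 (1.11 ± 0.22). In Cr1l, a complement regulator gene, chr1:195097801-195098900 had 10.6 and 12.9 against 18.4 and 18.7 (1.07 ± 0.24). These 3 were higher in each normoxia library. In an exon of Itgb8, an integrin subunit gene, chr12:119169601-119170800 had 11.7 and 12.6 against 15.7 and 20.7 (0.99 ± 0.24), and in Fyco1, an adaptor of autophagosome transport, chr9:123832901-123833800 had 13.8 and 11.9 against 18.7 and 19.02 (0.97 ± 0.24). The calls in Itgb8 and Fyco1, in Cr1l and near Depdc1a were lost with the values as deposited, where their log2 fold changes were 0.52 to 0.66, and the first 3 also with cyclic loess.

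**Figure D4:**
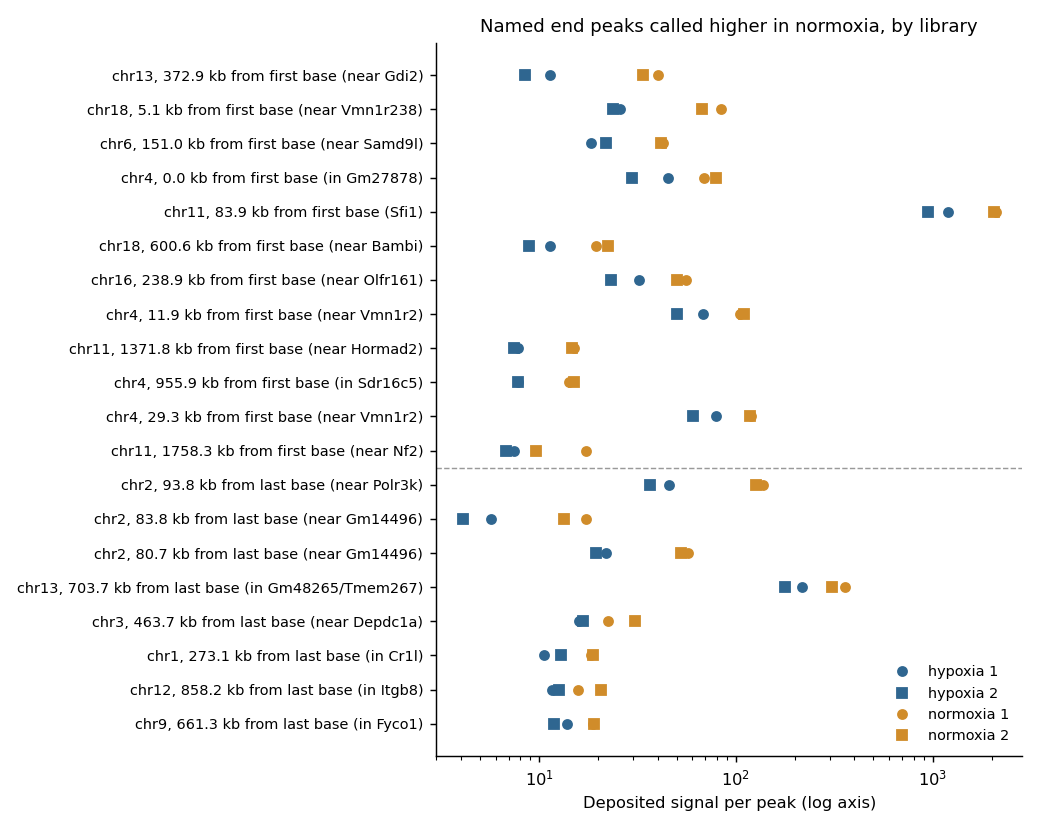
For the named end peaks called higher in normoxia, the deposited signal (log axis) is plotted for each of the 4 libraries, hypoxia in blue and normoxia in orange, with centromere-side peaks above the dashed line and far-end peaks below it. Every normoxia point lies right of both hypoxia points of its peak, a condition of the choice of these peaks, and Sfi1 stands apart in level at 949 to 2096.

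After RLE scaling, peaks called lower in normoxia were mostly promoter peaks at both ends, with 72 of 115 (62.6%) on the centromere side and 50 of 82 (61.0%) at the far end. This depended on the scaling. Promoter peaks were 217 of 461 and 112 of 273 with the values as deposited, and 9 of 23 and 10 of 18 with cyclic loess. With equal totals they were 15 of 23 and 14 of 19. Of all promoter peaks, 20.2% were called lower on the centromere side, 24.9% at the far end and 16.5% in the interior. Median log2 fold changes of all promoter peaks were close, at -0.27, -0.30 and -0.26. With equal totals over the peaks the centromere-side median turned to 0.016 and the far-end median to -0.017. With cyclic loess these were -0.054 and -0.096. Fold changes of the called peaks had a median of -0.63 on the centromere side and -0.61 at the far end. The peak caller had assigned 17 and 5 of them to hypoxia only.

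The centromere-side peak with the lowest fold change among those eligible was chr8:4612201-4612700 at the zinc finger gene Zfp958, with signals of 31.8 and 36.7 in hypoxia against 4.87 and 6.67 in normoxia (-1.95 ± 0.25), and 80.9% of its 31-mers were repeated. Within Coro7 and Dnaja3, the latter a mitochondrial chaperone gene, chr16:4658201-4659200 had 28.7 and 32.6 against 6.37 and 5.67 (-1.73 ± 0.25). An intergenic peak nearest to Col1a2, the gene of a type I collagen chain, chr6:4546201-4547500, had 23.4 and 32.3 against 5.62 and 7.34 (-1.50 ± 0.26). Both normoxia libraries were below both hypoxia libraries in each of them, a condition of their choice.

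At the far end the lowest was the promoter of Itgb8 (chr12:119236901-119239900), with 205 and 233 in hypoxia against 63.0 and 77.8 in normoxia (-1.15 ± 0.12), so that the exon and the promoter of this gene gave calls in opposite directions. At Wls, whose product carries Wnt ligands to the cell surface, the promoter peak chr3:159839001-159840700 had 177 and 198 against 63.0 and 83.4 (-0.88 ± 0.13) and the intronic peak chr3:159840801-159842800 had 65.1 and 63.2 against 20.6 and 25.4 (-0.98 ± 0.17). Both lay within 99.0 kb of the last called base of chromosome 3. On chromosome 15, chr15:103376401-103379600, with Itga5, a fibronectin receptor subunit gene, as the nearest protein-coding start, had 138 and 133 against 48.3 and 51.4 (-0.96 ± 0.13). The promoter of Pde1b, a calmodulin-dependent phosphodiesterase gene (chr15:103513301-103515600), had 82.8 and 99.3 against 33.7 and 36.7 (-0.87 ± 0.15). In each of these peaks the groups were separate, which was again a condition of their choice.

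Of the strongest peaks, the one at the promoter of Vasn, a TGF-β-binding membrane protein gene (chr16:4632101-4658200), had 1197 and 1214 in hypoxia against 634 and 696 in normoxia, and a log2 fold change of -0.38 ± 0.075 that turned to 0.20 with cyclic loess. The promoter of Ppp2r3d, a regulatory subunit gene of protein phosphatase 2A (chr9:124422201-124426800), lay 68.3 kb from the last called base with 1119 and 1299 against 472 and 691 (-0.60 ± 0.093), and with cyclic loess the call was lost at a log2 fold change of -0.022. At Mxra8, a matrix remodelling gene (chr4:155836601-155842100), the signals were 489 and 510 against 260 and 302, and the log2 fold change of -0.35 ± 0.092 turned to 0.11 with cyclic loess. All 3 peaks were lower in both normoxia libraries in the deposited values, as were 59.5% of all peaks.

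The outermost peaks were read at the chromosome ends that hold a named higher peak. On the centromere side, the first peaks of chromosomes 4, 16 and 18 were called higher and are those named above. The first peak of chromosome 6 (chr6:3181601-3184600) had 43.2 and 41.1 in hypoxia against 46.1 and 42.4 in normoxia (log2 fold change 0.54), that of chromosome 11 (chr11:3101401-3102300) had 7.79 and 4.08 against 11.2 and 8.01 (1.07), and that of chromosome 13 (chr13:3086401-3087100) had 8.49 and 14.96 against 7.12 and 15.02 (0.33). None of these 3 was called. At the far end, the last peak of chromosome 2 is the one called higher above. The last peak of chromosome 3 (chr3:159936301-159939500), in Wls and 0.18 kb from the last called base, had 25.5 and 36.7 against 16.1 and 25.03, and that of chromosome 9 (chr9:124473201-124476500) had 27.6 and 32.0 against 24.4 and 26.03. Neither was called, nor were the last peaks of chromosomes 1, 12 and 13.

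Telomere sequence was looked for in the central 500 bp of the peaks at least that wide, as 2 direct copies of TTAGGG on either strand. It was found in 0 of 1583 centromere-side, 2 of 739 far-end (0.271%) and 24 of 105750 interior windows (0.0227%). Over whole peaks it was found in 7 end peaks, all at promoters except the last peak of chromosome 3, which held 8 copies (log2 fold change -0.12). The promoter peaks of Zfp263 (-0.60) and C2cd2 (-0.77), both on chromosome 16, were called lower, and the other 5 were not called. The CENP-B box, the site of a centromere-binding protein, was searched on either strand as TTCG, any 4 bases, A, any 2 bases and CGGG, and was found in 1, 0 and 38 of these windows. The unit AGCACTGTGACA was found in 5 of the centromere-side, 0 of the far-end and 21 of the interior windows (0.316%, 0% and 0.0199%).

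Repeated sequence and calls were also counted together. Of centromere-side peaks with no repeated 31-mer, 21 of 861 (2.44%) were called higher, of those with some 24 of 866 (2.77%), and of those with at least 25% 6 of 106 (5.66%). For far-end peaks these were 1 of 440 (0.23%), 3 of 390 (0.77%) and 4 of 50 (8%), and in the interior 1.76%, 1.75% and 2.97%. Without the most repeated class, 45 peaks on the centromere side and 4 at the far end were called higher. Reads that map to more than 1 place were subject to the authors' mapping quality minimum of 15, and how many reads that removed at these peaks was not tested.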

How the data were processed

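ATAC-seq was measured in 2 hypoxia and 2 normoxia libraries. The authors aligned reads to mm10 with bowtie2, sorted them with samtools 1.3.1, removed duplicates with Picard and called 1 peak set over both groups with chromstaR (bin size 300, step 100, minimum mapping quality 15). The deposited signal per peak and library, called RPKM by the authors, was not normalised to peak width. Every value (100% in all 4 libraries, tolerance 0.001) was a whole multiple of 1 step per library. The step gave the reads per peak, and 10000000, taken as the scale, divided by the step gave the library total. It is not known whether these count fragments or positions, so no counting interval is given and depth sets only how firmly weak peaks are described.

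Peaks were tested with limma 3.58.1 in R 4.3.3 (lmFit, eBayes with trend and robust) on log2(signal + 1) after RLE size factors, two-sided, Benjamini-Hochberg adjusted over all 128055 peaks at an FDR under 0.01. On simulated data with 200 of 128055 peaks changed, 87% of 4-fold and 34% of 2-fold changes were recovered with 1 false call. The changed peaks were drawn from those above a minimum mean read number, with increases and decreases in equal number. The simulation held no difference between the groups in the share of reads in peaks. It therefore cannot give the rate of false calls in the real data. Interior medians were weighted to the end peaks over 50 bins of mean signal, with no test. Repeated sequence was counted as 31-mers, sampled every 10 bases for classes and at every base for copies, on GRCm38.p6. Features came from GENCODE M21.

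Named at each end were up to 12 peaks called higher and 5 called lower with the largest fold change (mean signal at least 10, no overlap between groups), the 2 strongest, and the outermost peak of a chromosome with a named higher peak. A gene is that with a protein-coding start within 1 kb, else the one overlapped, else the nearest start. Some of the peaks this rule names, and some of the marker genes looked up, are not reported here. Members, lists and tests were chosen with earlier results of these data known. The alternatives were other scalings, pseudocounts, filters, thresholds, edgeR 4.0.16 on the recovered reads, the replicate number as a block, libraries left out, other windows and other matching. The paper describes dividing the sorted cells between the 2 oxygen conditions, so libraries may share a cell preparation, and the labels do not say which. Same-numbered libraries did not deviate together (correlation 0.011 over all peaks). This cannot settle whether libraries are paired, and the numbers were not taken to pair them. The text files were read in Python 3.11.15.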

Additional observations from a re-analysis of the deposited data

How the results depend on the processing

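Counts are given as centromere-side higher and lower, then far-end higher and lower, beside 51, 115, 8 and 82. They were 12, 461, 4 and 273 with the values as deposited, and 150, 23, 47 and 19 with equal totals. With cyclic loess they were 33, 23, 9 and 18, and with a pseudocount of 0.1 they were 33, 92, 6 and 65. At an FDR under 0.05 they were 128, 212, 35 and 134, and no count over all peaks is given at that threshold. With limma's eBayes without trend and robust estimation they were 0 throughout, as were the counts over all peaks. By edgeR on recovered reads they were 69, 130, 17 and 92 (TMM) or 64, 134, 16 and 97 (RLE). Over all 128055 peaks, higher and lower counts were 2262 and 5856, beside 501 and 30729 as deposited and 8798 and 1078 with equal totals. Over all peaks they were 1819 and 1681 with cyclic loess and 1537 and 4289 with a pseudocount of 0.1. By edgeR they were 3649 and 6788 (TMM) or 3257 and 7296 (RLE) over all peaks. The shorter windows (start below 4 Mb, end within 0.5 Mb) gave 32, 54, 4 and 40. Without peaks of at least 25% repeated 31-mers there were 45, 107, 4 and 77, and without chromosomes 4 (centromere side) and 2 (far end) 44, 111, 5 and 75. Without the peaks with at least 5 copies of the unit, an alternative chosen after seeing the data, the first count was 46. With 1 library left out the ranges were 0 to 35, 0 to 165, 0 to 6 and 0 to 104, the 0 coming from either hypoxia library, after which the lone sample is assumed to vary like the other group. Without normoxia 1 and normoxia 2 the far-end higher count was 5 and 6. All 51 and 8 peaks called higher were also called with edgeR, a pseudocount of 5 and a minimum mean signal of 5, while 24 and 5 were with cyclic loess and 12 and 4 with the values as deposited.

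With the replicate number as a block (replicate block) the counts were 76, 149, 17 and 107, and all 51 and 8 peaks called higher remained called. Over all peaks, 3912 were then called higher and 8468 lower.

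The difference from the matched interior was 0.028 on the centromere side and -0.046 at the far end. It was 0.014 and -0.055 as deposited, 0.064 and 0.0078 with a pseudocount of 0.1, -0.0015 and -0.059 with a minimum mean signal of 5, and 0.017 and -0.088 with no matching, and it ran from 0.016 to 0.036 and from -0.063 to -0.035 with 1 library left out. The log2 fold change changed sign with cyclic loess at Vasn (0.20) and Mxra8 (0.11). The causes were not tested.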
